A study of Mus musculus with 26 samples.

Results

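The genes described here are the laminin chains and the integrin subunits. They were taken as every gene whose symbol in the array's annotation matched a rule. For laminin alpha, beta and gamma chains the symbol was Lama, Lamb or Lamc with a single-digit number. For integrin alpha and beta subunits it was Itga or Itgb followed only by digits or capital letters. The rule found 23 genes among the 6540 named genes of the arrays, namely 10 laminin chains (Lama1, Lama2, Lama3, Lama4, Lama5, Lamb1, Lamb2, Lamb3, Lamc1 and Lamc3), 7 integrin alpha chains (Itga2 to Itga8) and 6 integrin beta chains (Itgb1, Itgb2, Itgb3, Itgb4, Itgb6 and Itgb7). No filter on low values was applied, so all 23 were tested in every comparison. The rows of spots of 1 gene were averaged, and 21 of the 23 genes were on 2 rows, Lama1 on 4 and Lama3 on 6.

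The series set mouse lines with a defect in a muscle membrane protein against wild type mice on 26 arrays with 2 channels, which held 26 RNA samples from 13 groups, 2 samples per group. The wild type groups were bl6 and bl10. The dystrophin-deficient lines were mdx and mdx3cv, and the sarcoglycan-deficient lines were sgca, sgcb, sgcb2, sgcd and 1 more, which enters the pooled values and is not described singly. Of the others, dysf is named for dysferlin, the line sspn lacks sarcospan, and hDMD carries the human DMD gene. The line sjl was also taken to have a defect of dysferlin, which its label does not say. The labels name the groups with these short names only, so what each line other than sjl lacks was read from its name. Nothing else says how sgcb2 relates to sgcb. No tissue, age, sex, strain background of the lines or pooling of animals was given in the sources used here. Strain background and the missing protein therefore cannot be told apart in any comparison of a line with wild type. Nothing in the labels ties the 2 samples of each group to separate mice. The p-values reflect only the spread between these RNA samples and between arrays, and that spread may be technical. The ratio of these 2 spreads was taken as the same for all genes.

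Laminins are trimers of an alpha, a beta and a gamma chain and form the sheet of the basement membrane that wraps each muscle fibre, nerve and vessel. The laminin with the alpha-2 chain (Lama2) surrounds adult muscle fibres, and loss of that chain causes a congenital muscular dystrophy. Laminin is bound at the fibre surface by dystroglycan, the partner of dystrophin and the sarcoglycans, and by the integrin made of the alpha-7 chain (Itga7) and the beta-1 chain (Itgb1). Other integrins serve other cells: those with the beta-2 chain (Itgb2, CD18) occur on leukocytes and bind ICAM-1 on other cells.

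The arrays gave ratios between 2 samples, so a level here is always relative, on the log2 scale, to the mean of the groups or samples, and the levels of different genes cannot be compared. Every direction rests on reading the deposited values as channel 1 over channel 2, which is likely rather than stated: the genes that the lines lack, in 9 pairs of gene and line, were lower in their own line in 7, 3 of them with an unadjusted p under 0.05, against 2 and 0 under the other reading. The 2 pairs that were not lower are both of Dysf, the dysferlin gene, at 0.55 ± 0.62 in dysf and 0.76 ± 0.50 in sjl. Its level thus does not bear out a defect of dysferlin in either line, and they are called here the lines labelled dysf and sjl. The position of the spots within the transcript is unknown here, and a spot outside the changed part checks nothing. The median residual SD over genes was 0.49 on the log2 scale. The number of arrays, not a count of molecules, limits the precision. In bulk RNA such as this, fewer cells of a type and less RNA per cell cannot be told apart.

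The results turn on 4 genes, Lamb1, Lama2, Lama4 and Itgb2, the members that passed the test when the dystrophin- and sarcoglycan-deficient lines were pooled. The promoter table of RefSeq (GRCm38.p6, from 250 bases before to 50 after each start) held 13 of the 23 members and, of these 4, Lamb1 and Lama2, which are shown because these laminin chains were higher together. The Lamb1 promoter lies at chr12:31265043-31265342 on the plus strand and the Lama2 promoter at chr10:27616893-27617192 on the minus strand. Capitals mark the letters GGGCGG, the core of the GC box bound by Sp1, read on either strand, so that CCGCCC is the same motif on the other strand.
Lamb1: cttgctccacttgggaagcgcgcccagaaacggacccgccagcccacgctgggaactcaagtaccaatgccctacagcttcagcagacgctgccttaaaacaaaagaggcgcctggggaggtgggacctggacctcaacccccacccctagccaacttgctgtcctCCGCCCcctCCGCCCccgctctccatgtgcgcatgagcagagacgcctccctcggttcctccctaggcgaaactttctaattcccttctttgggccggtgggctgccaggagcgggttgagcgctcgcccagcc
Lama2: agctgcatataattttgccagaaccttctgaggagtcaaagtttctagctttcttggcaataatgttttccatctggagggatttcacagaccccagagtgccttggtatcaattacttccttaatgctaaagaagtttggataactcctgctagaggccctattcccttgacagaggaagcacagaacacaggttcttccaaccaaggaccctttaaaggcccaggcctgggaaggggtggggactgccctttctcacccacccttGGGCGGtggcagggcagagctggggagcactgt
The Lamb1 promoter held the motif at 2 places on the reverse strand, and the Lama2 promoter at 1 place on the forward strand. Of all 32851 promoters of 300 bases in the table, 35.7% held it. The letters TATAAA of the TATA box, also searched on both strands, were in neither window and in 13.6% of all promoters. The GC content was 63.7% for Lamb1 and 50.3% for Lama2, beside a median of 52.7% over all promoters. A match describes the letters of these windows only.

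The main question was how laminin and integrin genes differed between lines that lack dystrophin or a sarcoglycan (7 lines, 14 samples, called DS lines here) and wild type (bl6 and bl10, 4 samples). Lamb1, the laminin beta-1 chain, rose 2.84-fold, Lama4, an alpha chain of vessel and developing basement membranes, 1.85-fold, Lama2 1.66-fold, and the leukocyte integrin chain Itgb2 7.76-fold. These 4 of 23 members (17.4%) passed limma's test with an adjusted p under 0.05, and all 4 were higher. Over all 6540 genes 7.8% passed, 6.45% higher and 1.35% lower. With arrays centred on their median this split was 4.36% higher and 1.77% lower, and with arrays also scaled 1.68% and 0.887%; the called members were higher under both. The remaining 19 members lay between -0.47 and 0.77 on the log2 scale, 11 above 0 and 8 below, and none of them passed. Before adjustment, 6 of the 23 members had a p under 0.05 by the same test, beside 21.9% of all genes. For 17 of the 23 members the whole 95% interval of the difference lay between -1 and 1. The median difference was 0.38 over the 10 laminins and 0.13 over the 13 integrins, beside 0.06 over all genes. Above 0 were 15 of the 23 members, beside 55.5% of all genes. With arrays centred, 13 of the 23 members were above 0, and the median of all genes was then -0.029. The 2 wild type strains differed as much in these summaries. In bl10 against bl6 the medians were 0.46 over laminins, 0.16 over integrins and 0.04 over all genes. There, too, 15 of the 23 members were above 0, beside 53.1% of all genes.

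**Figure D1:**
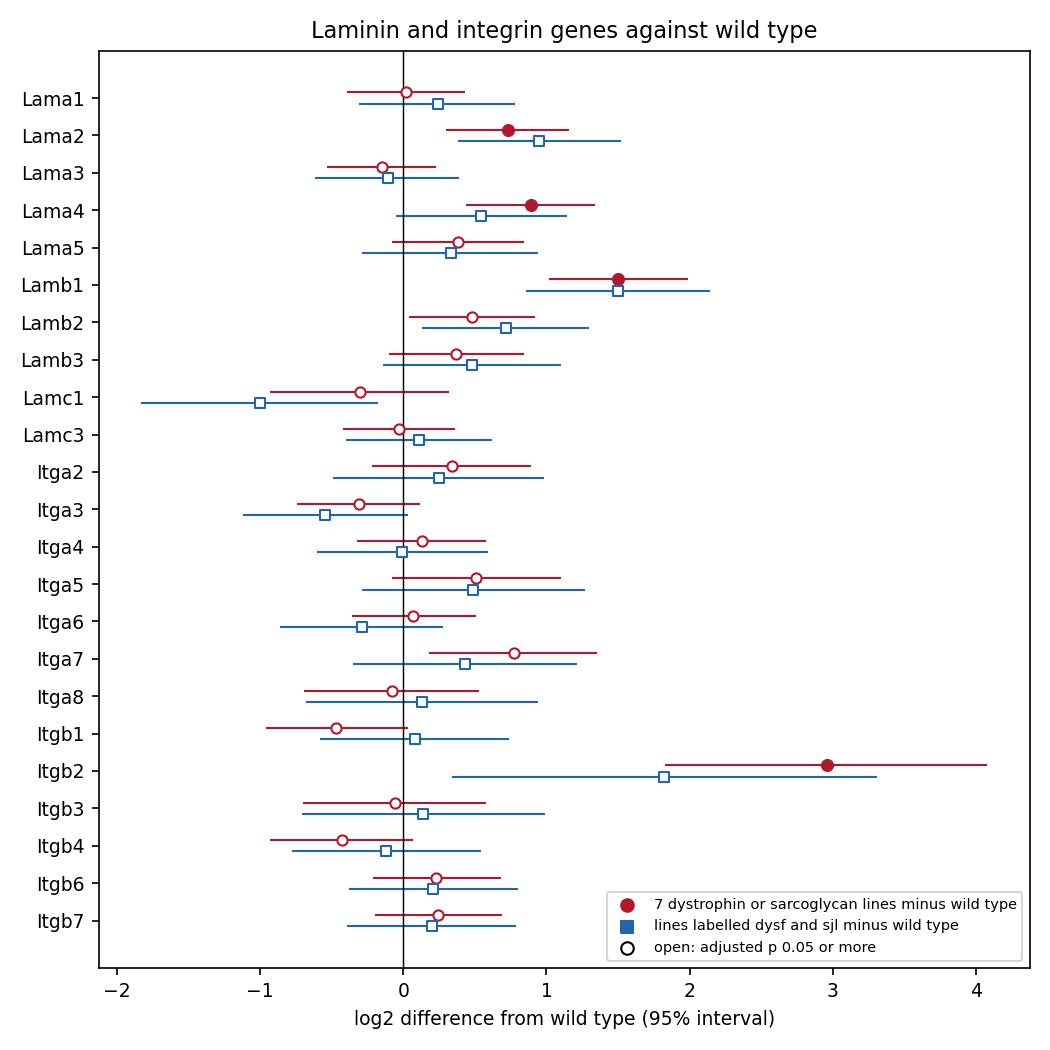
Log2 difference from wild type (horizontal axis) of each laminin and integrin gene, with the 95% interval of the fit; red circles are the 7 pooled dystrophin- or sarcoglycan-deficient lines, blue squares the lines labelled dysf and sjl, and filled symbols passed the adjusted test. Lamb1, Lama2, Lama4 and Itgb2 are the filled circles, and no square is filled, although Lamb1 lies at 1.5 in both comparisons.

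Lamb1 was the laminin with the largest difference. Its level in the wild type samples, relative to the mean of all 26 samples, was -2.21 and -1.09 in bl6 and -0.43 and -0.28 in bl10. In the 14 DS samples it ranged from -0.39 to 0.94 with a median of 0.51. The groups overlapped little: 12 of the 14 DS samples were above every wild type sample, while both samples of bl10 stood above both of bl6. The fitted difference was 1.5 ± 0.23 (log2, SE, 14 against 4 samples; limma adjusted p = 0.00129). Both rows of the gene gave it, at 1.44 and 1.57. In the 6 DS lines described one by one, Lamb1 was higher than wild type in 6 of 6, by 1.17 to 1.95. All 6 differences use the same 4 wild type samples, so such counts, here and below, are not separate replications.

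Lama4 and Lama2 had smaller differences and more overlap between samples. The wild type levels of Lama4 were -0.47 and -0.95 in bl6 and -0.48 and 1.10 in bl10, and the DS samples ranged from -0.72 to 1.42 with a median of 0.47. Sample 2 of bl10 thus stood among the highest samples of the series, and 2 of 14 DS samples were above every wild type sample. The fitted difference of Lama4 was 0.89 ± 0.22 (limma adjusted p = 0.0165), with rows at 0.87 and 0.90. Lama2, the chain of adult fibre laminin, was at -0.45 and -1.55 in bl6 and -0.94 and 0.95 in bl10, and at -1.20 to 1.31 with a median of 0.20 in the DS samples. Again sample 2 of bl10 was high, and 2 of 14 DS samples were above every wild type sample. The fitted difference of Lama2 was 0.73 ± 0.21 (limma adjusted p = 0.0344), with rows at 0.72 and 0.73; from the second row alone it missed the threshold (limma adjusted p = 0.0575). Each of these genes was above wild type in 6 of the 6 lines described singly, Lama4 by 0.52 to 1.38 and Lama2 by 0.49 to 1.14. Members without a call, such as Itga5 and Itgb6, were also above in 6 of the 6, against the same wild type samples.

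Lamb1 is itself a partner of Lama2 in the main laminin of adult fibres, while Lamb2 and Lamc1, further partners, did not pass the test. Lamb2, the beta-2 chain that is concentrated at the neuromuscular junction, was at -0.23 and -0.56 in bl6, at -1.02 and -0.31 in bl10, and at -0.97 to 0.49 (median 0.01) in the DS samples. It differed by 0.48 ± 0.21 (limma adjusted p = 0.187), with 10 of 14 DS samples above every wild type sample. Lamc1, the gamma-1 chain shared by most laminins, was at 1.07 and -0.28 in bl6, at 0.16 and 1.31 in bl10, and at -1.22 to 1.62 (median 0.36) in the DS samples. These ranges overlapped almost wholly, and the difference was -0.30 ± 0.30 (limma adjusted p = 0.62), with its rows at -0.64 and 0.04. The sign of Lamc1 is therefore not settled: it was 0.17 without bl6 sample 1, 0.12 without sjl sample 2 and 0.03 from the first row alone.

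None of the other laminin chains passed. Lama1, an alpha chain of embryonic basement membranes, was at 0.02, Lama5, an alpha chain of many adult basement membranes, at 0.38, and Lamc3 at -0.03. The chains of epithelial laminin were at -0.15 (Lama3) and 0.37 (Lamb3). The rows of Lama3 disagreed, from -0.94 to 0.68, so its mean over 6 rows is uncertain, and the rows of Lamc3 had opposite signs.

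**Figure D2:**
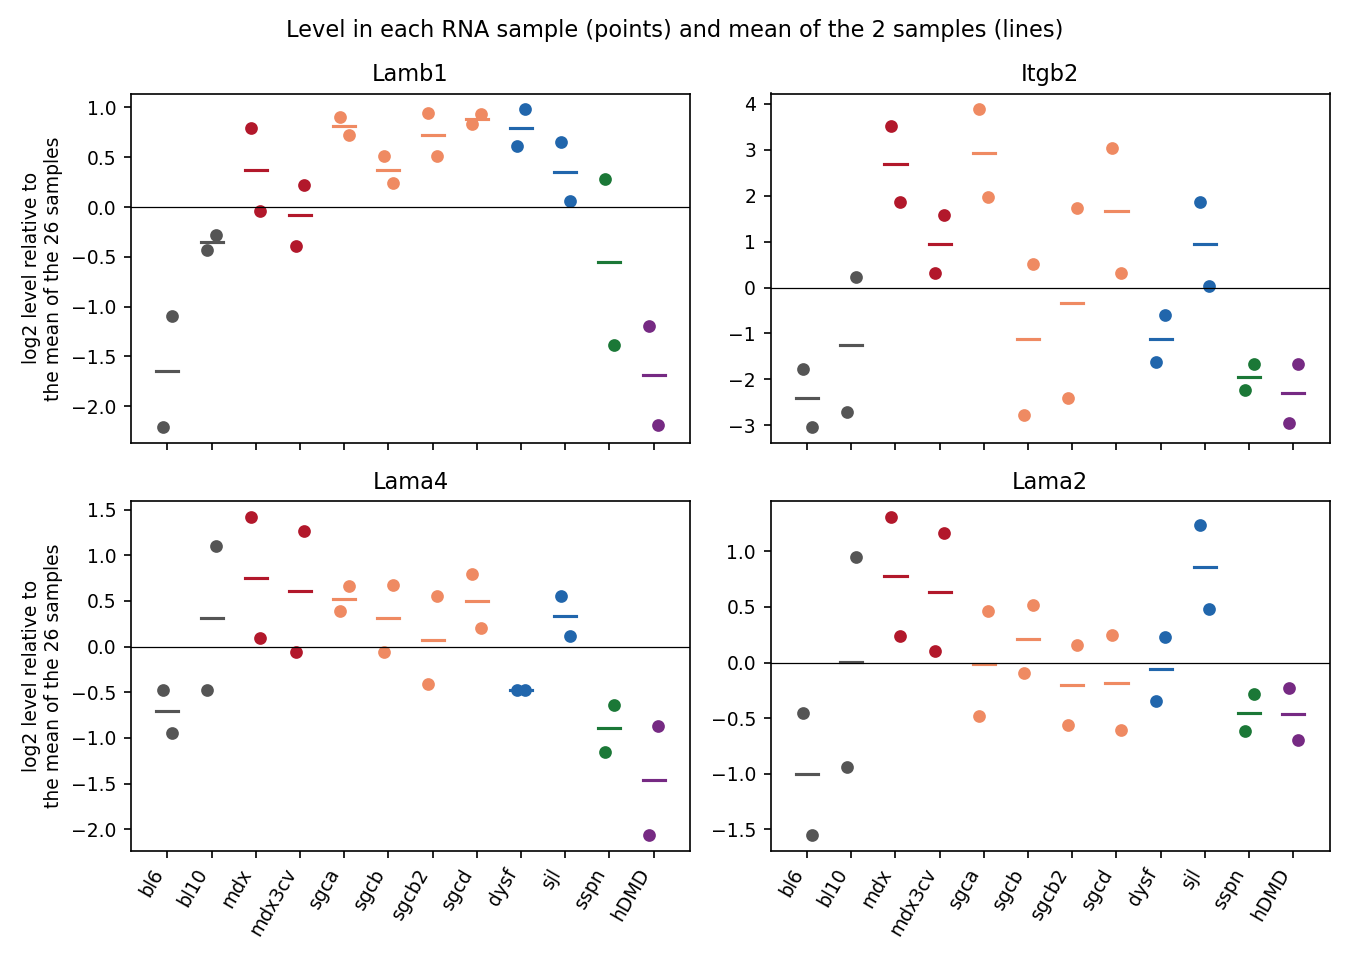
Level of Lamb1, Itgb2, Lama4 and Lama2 in each RNA sample (vertical axis, log2, relative to the mean of the 26 samples) for 12 of the 13 groups (horizontal axis); points are samples and short lines the mean of the 2 samples. Lamb1 is above 0 in both lines labelled dysf and sjl and lowest in bl6 and hDMD, and sample 2 of bl10 stands apart from sample 1 in Itgb2, Lama4 and Lama2.

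Itgb2 had the largest difference of the integrins and of the whole set. Its wild type levels were -1.78 and -3.04 in bl6 and -2.72 and 0.22 in bl10, and the DS samples ranged from -2.78 to 3.88 with a median of 1.48. The samples overlapped at the low end, with sgcb sample 1 at -2.78 and sgcb2 sample 1 at -2.40, and 12 of 14 DS samples were above every wild type sample. The fitted difference was 2.96 ± 0.54 (limma adjusted p = 0.00296), and the rows gave 2.92 and 2.99. It was above wild type in 6 of the 6 lines described singly, by 1.47 to 4.51.

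The laminin receptor of muscle fibres did not pass. Itga7 was at 0.47 and -0.91 in bl6, at -0.86 and 1.10 in bl10, and at -0.71 to 1.57 (median 0.36) in the DS samples. With 4 of 14 DS samples above every wild type sample, the difference was 0.77 ± 0.28 (limma adjusted p = 0.105), although it was above 0 in 6 of the 6 single lines, by 0.29 to 1.17. Itgb1, its partner and the beta chain of most matrix-binding integrins, was at -0.18 and 0.69 in bl6, at 0.48 and 0.13 in bl10, and at -1.31 to 0.78 (median 0.26) in the DS samples. Its difference of -0.47 ± 0.24 (limma adjusted p = 0.261) had the opposite sign to that of Itga7, and it was below wild type in each of the 6 single lines, by -0.70 to -0.35. The groups overlapped in both genes.

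The remaining integrins differed by less than the spread allows to call. Itga5, the alpha chain of the fibronectin receptor, was at 0.51 ± 0.28 and above 0 in 6 of 6 single lines, and Itga3, a laminin-binding alpha chain, was at -0.31 ± 0.21 and below 0 in 6 of 6 (limma adjusted p = 0.304 and 0.415). Itga6 and Itgb4, which together bind laminin in epithelia, were at 0.07 and -0.43. Itgb3, a beta chain of platelets and other cells, was at -0.06, Itgb6, an epithelial chain, at 0.23, and Itgb7, a lymphocyte chain, at 0.24. Itga4, an alpha chain of leukocytes, was at 0.13, Itga8 at -0.08, and Itga2, an alpha chain of collagen receptors, at 0.34.

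The 4 called members depended on which wild type strain served as control. Against bl6 alone, all 4 passed (6.96% of all genes did): Itgb2 by 3.76 ± 0.70, Lamb1 by 2.03 ± 0.30, Lama4 by 1.35 ± 0.28 and Lama2 by 1.10 ± 0.27 (limma adjusted p = 0.00431, 0.00112, 0.00783 and 0.0166). Against bl10 alone, none of the 23 passed, and 0.153% of all genes did. The differences from bl10 were 2.15 ± 0.67 for Itgb2, 0.98 ± 0.29 for Lamb1, 0.43 ± 0.27 for Lama4 and 0.36 ± 0.26 for Lama2 (limma adjusted p = 0.199, 0.163, 0.661 and 0.732), each below that from bl6. Set directly against each other, bl10 was above bl6 in Lamb1 by 1.04 ± 0.37, in Lama4 by 0.92 ± 0.34, in Lama2 by 0.74 ± 0.33 and in Itgb2 by 1.62 ± 0.85. No member passed in that comparison of strains (limma adjusted p = 0.503, 0.519, 0.597 and 0.625; 4 of 23 had an unadjusted p under 0.05, beside 7.98% of all genes, and 0.0153% of all genes passed).

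Single arrays gave ratios of a DS sample over a wild type sample without any model. The dye effect of each gene, which the fit removes, remained in these ratios. Of the samples named first below, those of mdx, sgcb2 and bl10 were in channel 1 and those of sgca and mdx3cv in channel 2. On the array of mdx sample 1 over bl6 sample 1 the measured log2 ratio was 3.25 for Lamb1, 5.52 for Itgb2, 2.27 for Lama4 and 2.25 for Lama2. On that of sgca sample 1 over bl6 sample 2 the ratios were 1.74, 6.69, 0.97 and 0.58 in the same order. With sgcb2 sample 1 over bl10 sample 1 they were 1.61, 0.56, 0.45 and 0.86, and with mdx3cv sample 2 over bl10 sample 2 they were 0.25, 1.14, -0.21 and -0.27. The signs of these last ratios of Lama4 and Lama2 depended on the dye. In the sample levels, which allow for dye, mdx3cv sample 2 was above bl10 sample 2 in Lama4 (1.27 against 1.10) and Lama2 (1.17 against 0.95). Counting the array of the line not described singly, the measured ratios over wild type were above 0 on 5 of 5 arrays for Lamb1 and Itgb2. For Lama4 and Lama2 they were above 0 on 4 of 5. Among those given here the ratios of Itgb2 were larger on both arrays with bl6 than on both with bl10. The arrays with bl6 held mdx and sgca and those with bl10 held sgcb2 and mdx3cv, so strain and line cannot be told apart here. On the 1 array of bl10 sample 1 over bl6 sample 2, all 4 genes were higher in bl10, at 0.90, 0.56, 0.85 and 1.10. In the sample levels bl10 sample 1 was also above bl6 sample 2 in all 4 genes. The distance there was smaller for each, such as -0.48 against -0.95 for Lama4 and -0.94 against -1.55 for Lama2.

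**Figure D3:**
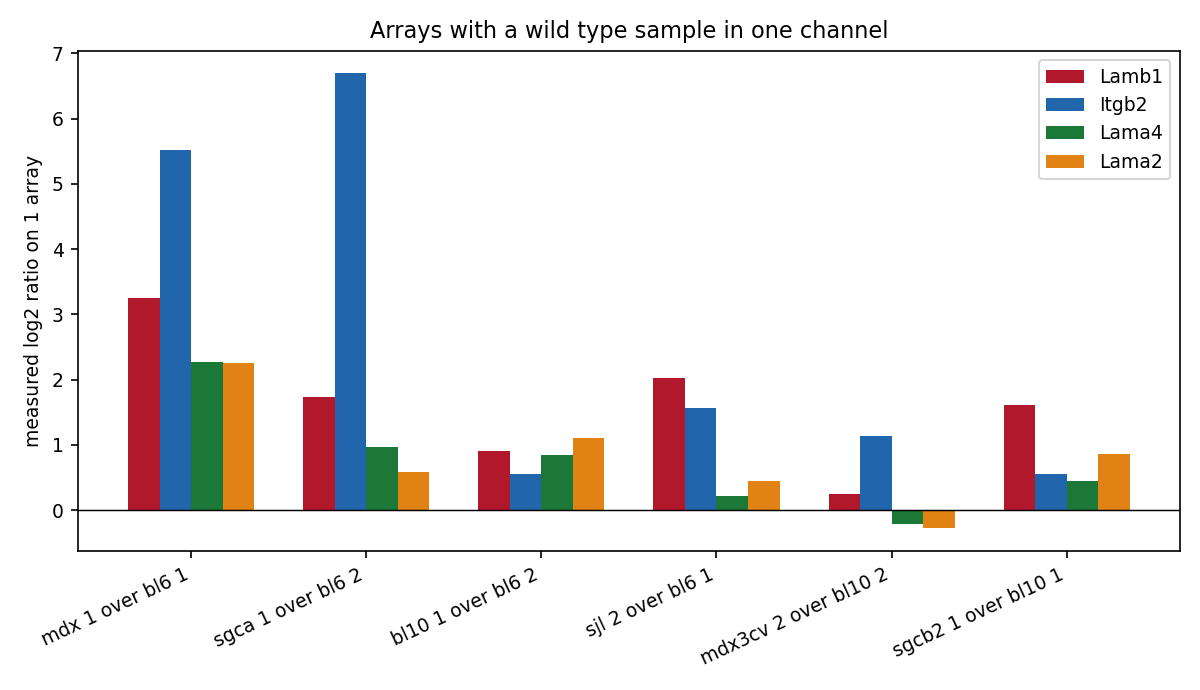
Measured log2 ratio (vertical axis, no model, dye effect not removed) of Lamb1, Itgb2, Lama4 and Lama2 on 6 single arrays that held a wild type sample in 1 channel, with the pair of samples under each set of bars. The bars of Itgb2 reach 5.52 and 6.69 for mdx and sgca over bl6 and 0.56 and 1.14 for sgcb2 and mdx3cv over bl10.

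The size of the differences also depended on single samples. Itgb2 and Lamb1 passed with each of the 26 samples left out in turn, at 2.24 to 3.50 and 1.17 to 1.74. Without bl6 sample 1, bl10 sample 2, mdx sample 1 or mdx3cv sample 2, Lama4 was at 0.70, 0.96, 0.69 and 0.81 (limma adjusted p = 0.186, 0.103, 0.14 and 0.0895) and only Itgb2 and Lamb1 were left, while the share of all genes that passed fell to 1.13%, 1.42%, 1.57% and 3.03%. Over the 26 fits Lama2 ranged from 0.60 to 0.87, and it missed the threshold in 15 of them. Itga7 passed without sgca sample 2, sjl sample 1 or sjl sample 2, at 0.82, 0.87 and 1.02 (limma adjusted p = 0.0327, 0.0264 and 0.0211).

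Taken singly, each line had 2 samples and fewer members passed. In mdx, Itgb2 rose by 3.41 ± 0.75 and Lamb1 by 1.60 ± 0.32 (limma adjusted p = 0.0296 and 0.0222; 1.33% of all genes passed). In sgcd, the same 2 members rose, by 4.51 ± 0.86 and 1.95 ± 0.37 (0.0135 for both by limma; 2.13% of all genes). In sgca, where 7.42% of all genes passed, Itgb2 rose by 4.39 ± 0.77 and Lamb1 by 1.91 ± 0.33 (limma adjusted p = 0.00314 and 0.003), and Itga2 also passed, at 1.51 ± 0.38 (limma adjusted p = 0.0206). The samples of Itga2 were 1.35 and 0.96 in sgca, above all 4 wild type samples, which reached 0.51 at most. In sgcb2, Lamb1 alone passed, at 1.86 ± 0.35 (limma adjusted p = 0.0247; 0.199% of all genes). No member passed in mdx3cv (limma; 0% of all genes did) or in sgcb (0.107% of all genes). At an unadjusted p under 0.05 there were 3 of 23 in mdx3cv, beside 8.65% of all genes, and 7 of 23 in sgcb, beside 11.2%. For the lines with calls there were 5 of 23 in mdx, beside 13.4% of all genes, and 5 in sgca, beside 21.9%. In sgcb2 there were 4, beside 9.04%, and in sgcd 3, beside 15.4%. These calls rest on few samples. Leaving out 1 sample at a time gave 0 to 3 members in mdx, with a count near that above in 13 of 26 fits, 0 to 5 in sgca (23 of 26), 0 to 3 in sgcd (20 of 26) and 0 to 1 in sgcb2 (12 of 26). Itga2 in sgca missed the threshold in 7 of 26 fits and was at 0.77 without sgca sample 1. The calls of sgcb2 and sgcd did not hold without sample 1 of the line itself, nor without sample 2. Lamb1 was then at 1.84 and 1.82 in sgcb2 and at 1.77 and 2.13 in sgcd. The calls of mdx and sgca did not hold without sample 1 of the line.

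In sgcb, the fitted differences from wild type were 1.38 ± 0.37 for Lama4, 1.14 ± 0.36 for Lama2 and -1.38 ± 0.52 for Lamc1 (limma adjusted p = 0.249, 0.272 and 0.345). Its group levels of Lama4 and Lama2 came first in the fitted order but only 0.11 ± 0.37 above sgcd and 0.04 ± 0.40 above mdx. Its samples, at -0.06 and 0.68 for Lama4 and -0.09 and 0.52 for Lama2, lay below the highest samples of mdx, at 1.42 and 1.31. Lamc1 was at -1.22 and -1.16 in the sgcb samples, below all 4 wild type samples, and was also low against wild type in dysf, by -1.19 ± 0.53, and in sspn, by -1.03 ± 0.52, without a call. The rows of Lamc1 gave differences of -0.89 and -1.87 in sgcb. Dystrophin- and sarcoglycan-deficient lines set against each other gave no call for any member (limma; 0 of 23 had an unadjusted p under 0.05, beside 2.09% of all genes, and 0.0153% of all genes passed), with differences from -0.53 to 0.53.

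**Figure D4:**
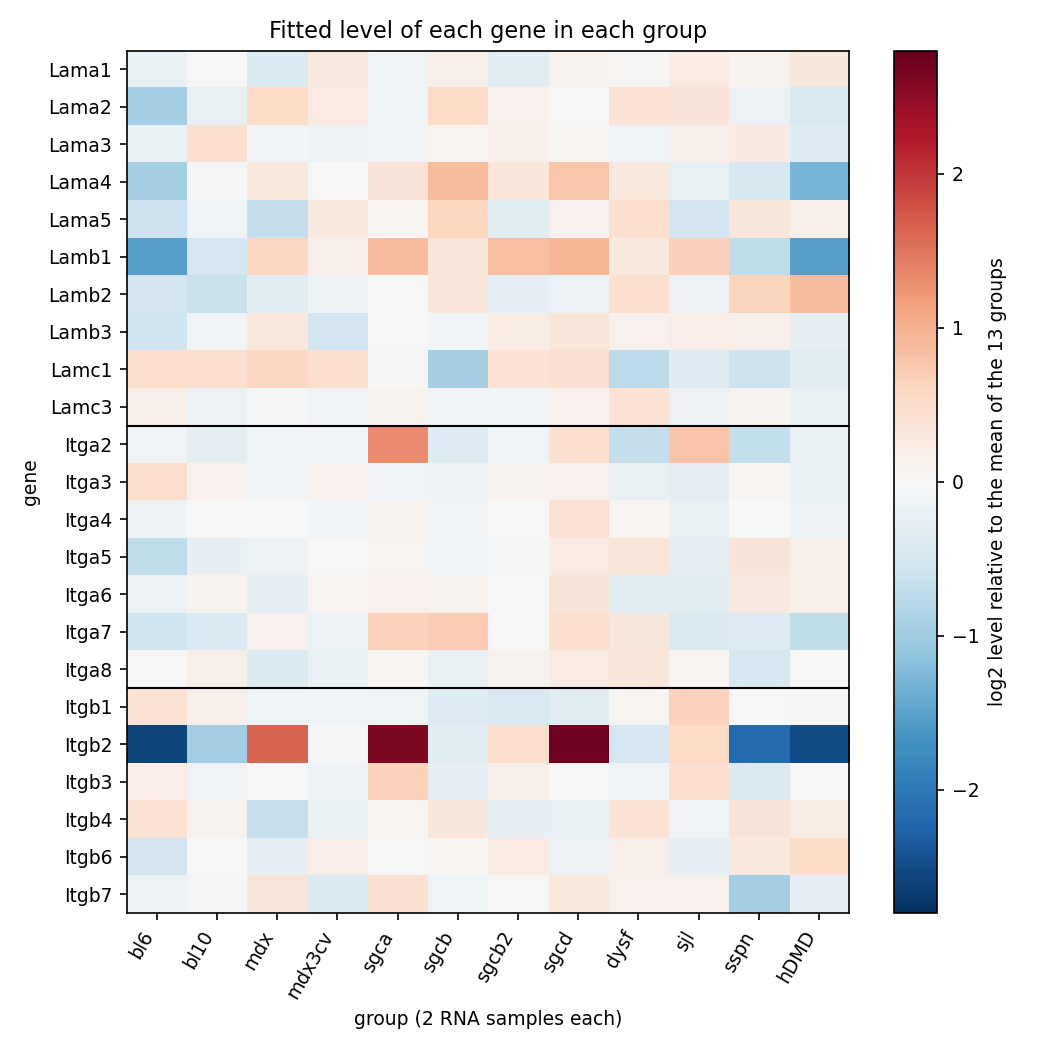
Fitted level of each laminin and integrin gene (rows) in 12 of the 13 groups (columns), as a colour on the log2 scale relative to the mean of the 13 groups; black lines part laminins, integrin alpha chains and integrin beta chains. Itgb2 spans from -2.59 in bl6 to 2.73 in sgcd and Lamb1 from -1.55 in hDMD to 0.93 in sgcd, while most other rows are pale.

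Over all 13 groups, an F test for any difference passed for Lamb1, Itgb2 and Lama4 (limma, adjusted p = 0.00149, 0.009 and 0.0192), which is 3 of 23 beside 3.2% of all genes. Without sspn sample 1, 1 member passed. The order of the Lamb1 levels ran from sgcd at 0.93 ± 0.28, sgca at 0.89 and sgcb2 at 0.84 through sjl at 0.67, mdx at 0.58, sgcb at 0.34, dysf at 0.28 and mdx3cv at 0.15 to bl10 at -0.50, sspn at -0.72, bl6 at -1.54 and hDMD at -1.55 ± 0.28. For Itgb2 it ran from sgcd at 2.73 ± 0.66, sgca at 2.61 and mdx at 1.63 through sjl at 0.55, sgcb2 at 0.50, mdx3cv at -0.04, sgcb at -0.31 and dysf at -0.48 to bl10 at -0.98, sspn at -2.18, hDMD at -2.50 and bl6 at -2.59 ± 0.65. In both orders, and in those of Lama4 and Lama2, 0 of the 11 pairs of neighbours among these 12 groups differed by more than the 95% interval of their difference. The steps between neighbours are therefore not resolved. The ends of the orders were not set against each other in a test, and for Lama2 the F test did not pass (limma adjusted p = 0.0754).

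The lines labelled dysf and sjl were compared with the same wild type samples. Only dysf is named for dysferlin, a protein of membrane repair. Lamb1 differed by 1.5 ± 0.31 (4 against 4 samples; limma adjusted p = 0.0945), Lama2 by 0.95 ± 0.27, Itgb2 by 1.82 ± 0.71, Lamb2 by 0.72 ± 0.28 and Lamc1 by -1.0 ± 0.40 (limma adjusted p = 0.282, 0.444, 0.451 and 0.459). The rows of Lamc1 disagreed here, at -0.21 and -1.80, so the size of its difference is uncertain. No member passed, and 0.0459% of all genes did; at an unadjusted p under 0.05 there were 5 of 23, beside 8.78% of all genes. The Lamb1 samples were 0.61 and 0.98 in dysf and 0.65 and 0.06 in sjl, all 4 above every wild type sample. In sjl alone Lamb1 passed, at 1.69 ± 0.33 (limma adjusted p = 0.0372; 0.245% of all genes), but not in 17 of the 26 fits that left out a sample. In dysf alone no member passed (limma; 0.107% of all genes did; 5 of 23 had an unadjusted p under 0.05, beside 8.46% of all genes). In sjl 4 of 23 had an unadjusted p under 0.05, beside 9.63% of all genes. The test of DS lines against those labelled dysf and sjl, in which the wild type samples cancel, called no member and 0.122% of all genes. It gave 0.01 ± 0.23 for Lamb1, 1.13 ± 0.54 for Itgb2, -0.55 ± 0.24 for Itgb1 and 0.70 ± 0.30 for Lamc1, of which the last 3 had an unadjusted p under 0.05 (limma adjusted p = 0.591, 0.549 and 0.536), beside 8.44% of all genes. The value of Lamc1 carries the same disagreement between its rows.

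In sspn and hDMD, neither Lamb1 nor Itgb2 passed the test against wild type. Lamb1 differed by 0.30 ± 0.40 in sspn and -0.52 ± 0.39 in hDMD, and Itgb2 by -0.40 ± 0.93 and -0.71 ± 0.89. Itgb2 was at -2.24 and -1.66 in sspn and at -2.94 and -1.67 in hDMD, within the range of the wild type samples. Lamb1 was at 0.28 and -1.39 in sspn and at -1.19 and -2.19 in hDMD, where sspn sample 1 was above every wild type sample. Lamb2, in contrast, had its highest group levels here. Its samples were 0.00 and 1.21 in sspn and 1.08 and 1.07 in hDMD, all above the 4 wild type samples. The difference from wild type was 1.20 ± 0.37 in sspn and 1.44 ± 0.35 in hDMD, which missed the threshold (limma adjusted p = 0.21 and 0.337). No member passed in either line (limma; 0.107% of all genes did in sspn and 0.0153% in hDMD). At an unadjusted p under 0.05 there were 2 of 23 in sspn, beside 12.1% of all genes, and 3 of 23 in hDMD, beside 6.56%. In hDMD without sample 2, Lamb2 was at 1.79 (limma adjusted p = 0.0453).

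Genes that work beside laminins and integrins were followed in lists chosen with earlier results of these data known. The counts below stand beside the 6.45% of all genes that rose in the DS lines. Of 17 basement membrane partners of laminin, 5 rose and 0 fell, and the median was 0.13 beside 0.06 over all genes. These were the nidogens that bridge laminin to collagen IV, Nid1 by 1.23 ± 0.27 and Nid2 by 1.12 ± 0.31, the collagen IV chains Col4a2 by 0.94 and Col4a1 by 0.82, and Col18a1 by 0.98. Of 13 other integrin ligands 2 rose, Icam1, the ligand of beta-2 integrins, by 1.49 ± 0.34, and Tnc, the matrix protein tenascin-C, by 1.38 ± 0.34. Of 26 integrin adaptors inside the cell 2 rose, Rsu1 by 1.20 and Parva, which binds integrin-linked kinase, by 0.81, and of 11 partner proteins in the membrane 1 rose, the syndecan gene Sdc2 by 1.28. The shares of adaptors and of membrane partners are near that of all genes. The 7 integrins with further small letters in their symbols, outside the symbol rule, gave 0 calls. Among them Itgam, the alpha chain that pairs with Itgb2 on macrophages and granulocytes, was at 1.24 ± 0.47 (limma adjusted p = 0.112). None of the members of these 5 lists fell. Against bl10 alone none of their genes rose past the threshold, and bl10 was above bl6 by 1.67 in Col4a1 and in Col4a2.

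The list of macrophage markers moved with Itgb2. Of 15 macrophage markers, 11 rose in the DS lines, with a median of 2.76, and 1 passed against bl10 alone. In the DS lines 14 of the 15 were above 0, and Lyz2 was at -0.44. The list includes Ptprc, a gene of leukocytes in general, so it does not part macrophages from other leukocytes. The mean level of this list was -1.78 in bl6, -0.86 in bl10, -2.07 in sspn and -2.15 in hDMD, and from -0.30 in sgcb to 2.16 in sgcd among the 6 DS lines described singly. Itgb2 was lowest in the 3 groups in which the list was lowest and highest in the 3 in which it was highest. Ratios give no absolute level, so whether a marker was absent in a group cannot be read from them. The part of these cells in the difference of Itgb2 was not tested.

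Of 9 fibroblast markers, 6 rose, with a median of 1.07, among them the collagen genes Col1a1 by 1.95 and Col3a1 by 1.69. The mean level of that list was -0.87 in bl6, -0.77 in bl10, -0.96 in hDMD and -0.03 in sspn, 0.54 in dysf and -0.15 in sjl, and from -0.10 in mdx3cv to 0.75 in sgcd among the 6 DS lines. The single genes of the list spread widely within a group, from -1.18 to 1.26 in sspn. The part of fibroblasts in the differences of Lamb1, Lama2 and Lama4 was not tested. Granulocytes also carry Itgb2, and of 10 granulocyte markers 3 rose in the DS lines, 1 in the lines labelled dysf and sjl and 3 in sspn. Their mean level was 1.53 in sgcb, 1.44 in dysf, 1.02 in sgca and 0.99 in sspn. Itgb2 was at -0.31, -0.48, 2.61 and -2.18 in these groups. In sgcd, where Itgb2 was highest, the mean level of the granulocyte markers was 0.10. The part of granulocytes in the difference of Itgb2 was not tested. In the DS lines, of 11 markers of immature muscle 2 rose, and 1 each of 13 markers of lymphocytes, of 6 of Schwann cells and of 7 of epithelium. Of 10 endothelial, 11 muscle fibre and 4 platelet markers, 0 passed, with medians of 0.03, 0.02 and -0.19. In the list of fibre markers the mean level was 0.04 in bl6 and -0.47 in bl10, and the creatine kinase gene Ckm was lower in bl10 by -2.52 (limma; not past the threshold).

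**Figure D5:**
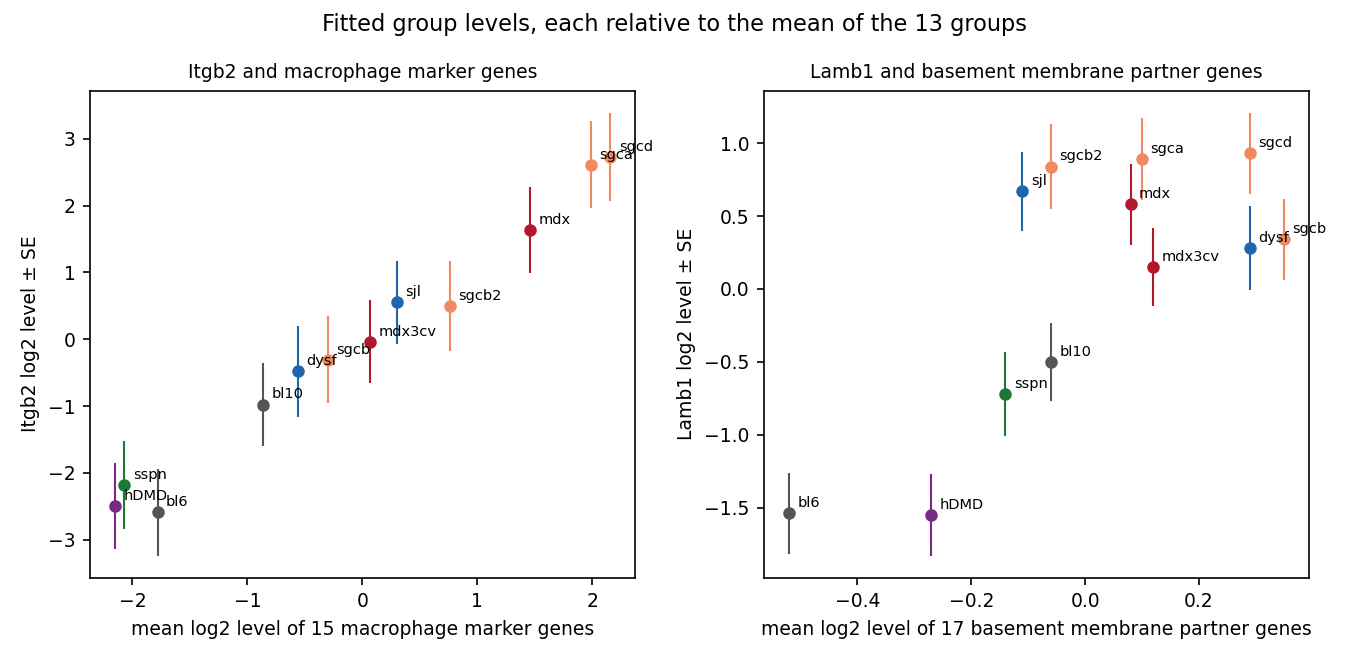
Left: fitted level of Itgb2 (vertical axis, log2 ± SE) against the mean level of 15 macrophage markers (horizontal axis) in 12 groups; right: the same for Lamb1 and 17 basement membrane partners. All levels are relative to the mean of the 13 groups, and Itgb2 follows the macrophage list from hDMD, sspn and bl6 at the lower left to sgca and sgcd at the upper right.

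Over the 13 group levels, the genes whose pattern was most like that of Itgb2 were Ptprc, which encodes the leukocyte antigen CD45 (Pearson r = 0.988), the cytokine receptor gene Csf2ra (r = 0.985) and Lgals3 (r = 0.979). For Lama4 they were Mmp14, a membrane-bound matrix protease (r = 0.969), Septin8 (r = 0.959) and Icam1 (r = 0.958). For Lamb1 they were Fgfr1op2 (r = 0.956), P2ry14 (r = 0.952) and Nid1 (r = 0.949), and for Lama2 Cpq (r = 0.90), Nedd4 (r = 0.889) and Dnajc7 (r = 0.889). Among the members themselves, Lamb1 followed Itgb2 (r = 0.862), Lama4 (r = 0.859) and Lama2 (r = 0.756), and Lama4 followed Itga7 (r = 0.874), while Lamb2 was at -0.237 with Lamb1 and Lamc1 at 0.0545. These values describe 13 points that share the arrays of 1 loop and the 2 wild type strains, and the named genes are the closest of 6540.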

How the data were processed

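RNA of 26 samples was hybridised to 26 arrays with 2 channels, each sample once in each channel, in 1 loop. The authors deposited 1 value per spot and array, per the file headers, with no unit, direction, dye or normalization stated, and with tools and scanner not given in the sources used here. On 25 of 26 arrays the values fell on a lattice of at least 8 steps whose scale was, within 1%, a whole number of natural log units (log2 on 0, log10 on 0), with the flat part of a generalized log on all 25, which understates the change of dim spots. The design had assumed log2 ratios, so the deposited natural log ratios were divided by 0.6931 to give log2 ratios; background was not corrected again, and array medians (-0.074 to 0.173, natural log) were left as deposited, so the centring is unknown.

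Of 16416 rows, 13662 named 1 gene, 14 several and 2740 none, with 0 missing values. Gene names came from the platform annotation, and all 23 members matched the reference table by Entrez identifier. Rows of a gene were averaged to 6540 genes. Each gene was fitted in R 4.3.3 by generalized least squares (12 terms for groups, 1 for dye). The RNA sample was a random effect whose variance ratio (0.207 by REML) was 1 value shared by all genes. A gene whose samples spread more widely than that did not get a ratio of its own. There were 13 residual and 7.38 prior degrees of freedom. The test was limma 3.58.1's empirical Bayes test with Benjamini-Hochberg adjustment over all genes at 0.05. It was run in 15 comparisons that mostly share the 4 wild type samples. The fit was tested on simulated data. Levels of single samples come from the loop with 1 term per sample and carry the summed errors of the arrays between them.

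The members and gene lists were chosen with earlier results of these data known. Described with values per sample are members past the threshold in a pooled comparison or in 1 line, and the chains of adult fibre laminin and its integrin. From each list up to 4 genes with the smallest p, and all basement membrane partners past the threshold, could be named, and the 3 genes most like each called member over 13 group levels. Alternatives changed the array centring and scale, the random effect, the array weights, the rows used, the prior, the wild type strain, a replicate block and each sample in turn.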

Additional observations from a re-analysis of the deposited data

Results flagged for a closer look

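In 36 sets of the samples of 1 gene and 1 kind of line, a sample was looked for that stood far from the nearest of the others relative to the whole range, which chance gives in about 1 set of 20. There were 2 such sets. Itga7, the alpha chain of the fibre's laminin receptor, was at 0.83 in sjl sample 1, while the nearest of the other samples labelled dysf or sjl was at -0.40 (log2 level relative to the mean of the 26 samples, n = 4). Itgb1, its beta chain, was at -1.31 in sgcb sample 2, while the nearest of the other sarcoglycan-deficient samples was at 0.12 (n = 10). Neither gene passed the test in a pooled comparison.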

How the results depend on the processing

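The wild type strain changed the counts most. With bl10 alone 0 members passed in DS, mdx, sgca, sgcb2, sgcd and sjl, and with bl6 alone 1 passed in the lines labelled dysf and sjl (Lamb1) and 4 in mdx. With arrays centred on their median, 0 passed in sgcb2 and 0 in sjl, and in DS Lama2 was at 0.64 (limma adjusted p = 0.064), with 401 genes called (6.13%) and 3 members. With arrays centred and scaled, 2 passed in DS (Itgb2 and Lamb1; 168 genes, 2.57%), 0 in mdx, 1 in sgca, 0 in sgcb2 and 0 in sjl. Centring moved the median of all genes in DS from 0.06 to -0.029. Without the random effect 1 passed in the lines labelled dysf and sjl (Lamb1). With array weights 5 passed in sgca, 0 in sjl, 1 in sspn (Lamb2) and 7 in the F test, and Itga7 passed in DS at 0.89 (limma adjusted p = 0.0184). The first row of each gene alone gave 1 in mdx, 0 in sgcb2, 0 in sjl and Lamc1 in DS at 0.03, above 0, and the second row alone gave 1 in mdx and ended the calls of Lama2 in DS (0.73, limma adjusted p = 0.0575, with 3 members left) and of Itga2 in sgca (1.36, limma adjusted p = 0.078). A robust prior and a pool without sgcb2 kept 4 members in DS.

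Leaving out 1 sample at a time gave 2 to 5 members in DS (the lowest 4 fits are named in the report), 0 to 1 in the lines labelled dysf and sjl (1 without bl6 sample 2, mdx sample 2 or sgca sample 1), 0 to 3 in mdx, 0 to 5 in sgca, 0 to 1 in sgcb2, 0 to 3 in sgcd, 0 to 1 in sjl, 0 to 1 in hDMD and 1 to 4 in the F test, and Lamc1 in DS ranged from -0.70 to 0.17. The lone sample left in a group was assumed to vary like the others. The causes of these changes were not tested. With the sample number as a replicate block, 4 members and 524 genes (8.01%) passed in DS. The numbers were not found to pair samples: over 78 pairs of groups the median r of the differences between sample 1 and sample 2 was -0.0338 (-0.796 to 0.663), and 31 pairs were over 0.1. Signal over background was not analysed here, so which spots were too dim to measure is unknown.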
